A study of Saccharomyces cerevisiae with 26 samples.

Results

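The RNA of a yeast strain without SFP1 was compared with that of its reference strain 60 min after an anaerobic pulse of glucose. The comparison rests on 4 of the 26 Affymetrix arrays of the study, 2 per strain, and its members are the arrays labelled sfp1delta_t60 and CENPK113-7D_t60. The reference cultures were the prototrophic haploid CEN.PK113-7D (MATa MAL2-8c SUC2). The deletion cultures had the same mating type, MAL2-8c and SUC2, but carried sfp1Δ::KlLEU2 and a mutant allele of LEU2. They thus lack SFP1 and also differ at LEU2 and by a LEU2 marker of another yeast, and these changes cannot be told apart. Whether more than 1 deletion clone was grown is not given in the sources used here. Both strains were first grown to steady state with air, limited by glucose, in chemostats (30 °C, pH 5.0, stirred at 800 rpm, diluted at 0.1 per h). The vessels were then sparged with nitrogen, the feed was stopped, 200 mM glucose was injected, and cells were quenched in liquid nitrogen. The labels describe the 2 replicates of a time point as independently cultured, and all 4 arrays thus come from cells that had spent the hour without oxygen and with abundant sugar. The comparison asks which transcript levels differ between the strains once the cells have left glucose limitation.

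Sfp1 is a zinc finger transcription factor that enters the nucleus when nutrients are plentiful, under control of the TOR and protein kinase A pathways, and activates genes for ribosomal proteins and for ribosome assembly. Yeast cells that meet abundant glucose switch to fermentation, lower the transcripts of respiration, gluconeogenesis and stress defence, and raise those of ribosome production. Without oxygen they also cannot complete the synthesis of heme, sterols and unsaturated fatty acids, and a set of hypoxic genes is switched on.

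The values are linear signal intensities. Signals under 12 (the floor) were set to 12 and compared on the log2 scale, so where any array of the dimmer group was at 12 the fold is only a minimum, written as at least that size. A gene is called higher or lower at a Benjamini-Hochberg adjusted p under 0.05 from limma over the 5369 genes tested, and differences are deletion minus reference with limma's standard error. SFP1 itself read 113.0 and 124.1 in the reference cultures and was at the floor in both deletion cultures, at least 9.87-fold lower. LEU2 read 2273 and 2027 against 1752 and 1971, a difference of −0.21 ± 0.13 (adjusted p = 0.185), while its 2 other probe sets gave −1.61 and −0.74. Whether these probe sets also detect the LEU2 marker of the deletion strain is not known here, so the value does not measure the strain's own LEU2 alone. The median signal was 27.1 and 29.0 in the reference cultures and 41.9 and 37.1 in the deletion cultures, although every array had been scaled to the same trimmed mean. Replicates correlated at 0.992 for the reference strain and at 0.973 for the deletion strain over the genes tested, and arrays of different strains at 0.914 to 0.935. The ratio of the actin 5′ to 3′ probe sets, which falls when RNA is degraded or labelled incompletely, was 0.731 and 0.697 in the reference cultures and 0.247 and 0.598 in the deletion cultures. Deletion replicate 1, the lower of the pair, also carries an array code beginning with MA, whereas the other 3 arrays carry ES, so values without it are given beside many of the results.

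At 60 min 2287 genes were higher in the deletion strain, 42.6% of those tested, and 573 were lower, 10.7%. Of these, 873 differed upward and 197 downward by at least 2-fold. The median gene was 0.39 higher on the log2 scale, and 2891 genes (53.8%) had both deletion arrays above both reference arrays against 818 (15.2%) below. This balance depends on the scaling. Setting all arrays to a common median gave 919 genes higher and 1248 lower, and quantile normalization, with a median difference of 0.08, gave 1186 and 845. A gene or list is therefore best read against the median gene, and counts or medians under a common median are given beside most of the lists below. When all 12 groups shared the estimate of spread, 1354 genes (25.2%) were higher and 242 (4.51%) lower. Without deletion replicate 1 the numbers were 1501 and 575, and without deletion replicate 2 they were 2646 and 521.

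**Figure D1:**
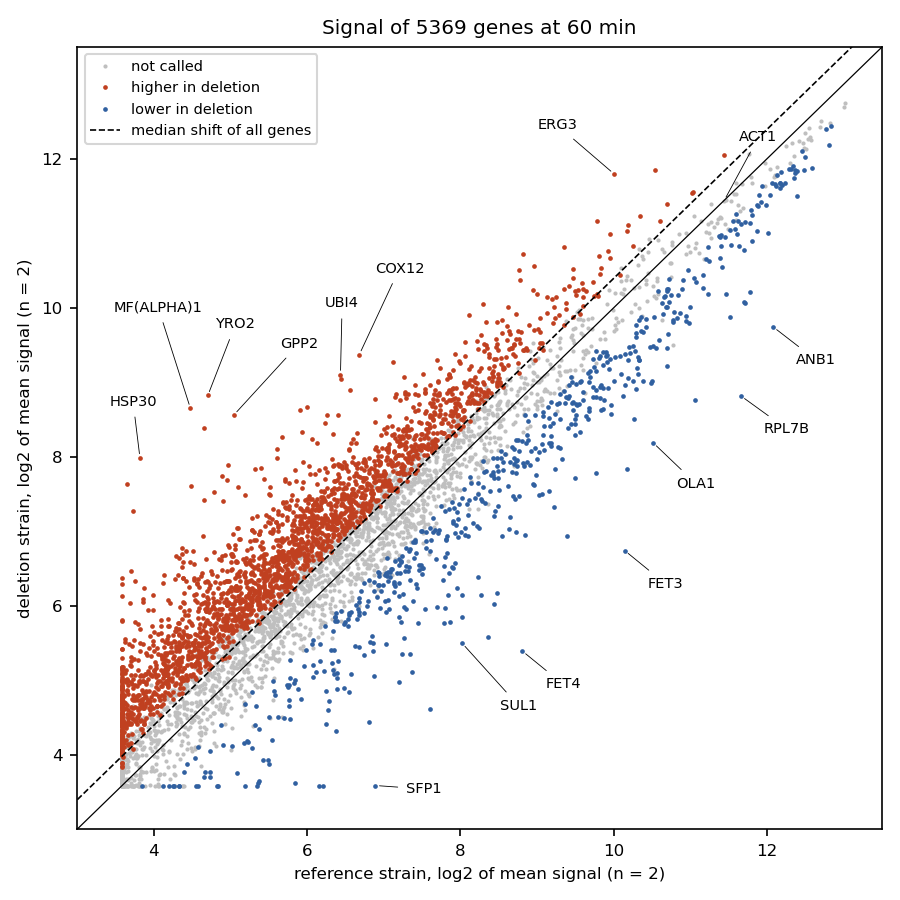
Signal of each gene at 60 min, reference strain on the horizontal axis and deletion strain on the vertical axis, as log2 of the mean of 2 arrays; the solid line marks equality and the dashed line the median difference of 0.39. Genes of middle and low signal lie mostly above equality, the brightest quartile has 544 genes called higher and 310 called lower, and FET3, FET4, ANB1 and RPL7B stand far below the line.

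Ribosomal protein genes, the class most closely tied to Sfp1, were lower in the deletion strain by a modest and uniform amount. Of 47 genes of the large subunit measured by a probe set of their own, 38 were lower and 1 was higher, with a median difference of −0.53. Of 34 genes of the small subunit, 25 were lower and none was higher, with a median of −0.46. The other 34 and 23 listed genes of the subunits share probe sets with a near-identical copy. The 59 tested probe sets that name several ribosomal protein genes had 43 lower and 0 higher, with a median of −0.49. RPL7B, which encodes a large subunit protein, was the exception in size. Its signal was 3485 and 2995 in the reference cultures and 526 and 374 in the deletion cultures, 7.29-fold lower (−2.87 ± 0.21, adjusted p = 2.55e-08). RPL3 followed with 3672 and 2994 against 823 and 1343 (−1.66 ± 0.23, adjusted p = 2.15e-05). Both pairs were far apart, but the deletion replicates of RPL3 differed by more than the reference ones. RPP2A, a protein of the ribosomal stalk, was 2.96-fold lower, RPL22B 2.22-fold and RPS7B 2.42-fold. RPS3, of the small subunit, read 5882 and 5505 against 4195 and 5303 and was not called (−0.27 ± 0.13, adjusted p = 0.0934).

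Against the median gene the ribosomal protein genes stood lower still, at −1.02 and −0.95 for the subunits under a common median, with 46 and 34 genes lower. Quantile normalization, in contrast, left 11 and 3 lower, and medians of −0.16 and −0.12. In that fit 845 of all 5369 genes were lower, and 1 small subunit gene was higher. The count for the small subunit thus did not stand out from all genes there. With all 12 groups 11 and 3 genes were lower, and without deletion replicate 1 the numbers were 20 and 11. In that last fit RPS0B, RPS14A and RPS14B lost their calls (adjusted p = 0.0514, 0.0774 and 0.171). The calls of RPS14A and RPS14B also ended with quantile normalization (adjusted p = 0.127 and 0.0682), and that of RPS14B with all 12 groups (0.0692). Both strains had raised these genes since steady state, by a median of 1.05 and 1.08 on the log2 scale for the subunits in the reference strain, and by 0.53 and 0.55 in the strain without SFP1. The steady state strain difference had a median of −0.06 for the large and 0.01 for the small subunit, and the interaction was negative and called for 25 and 16 genes, against 5.27% of all genes.

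Factors that assemble ribosomes showed a similar shift with more variation among genes. Among 71 genes of the small subunit processome and 40S assembly, 34 were lower and none higher, with a median of −0.51. Among 79 genes of 60S assembly and export, 38 were lower and 2 higher, with a median of −0.49. TSR1, a GTPase-like factor of 40S maturation, read 522 and 614 in the reference and 207 and 165 in the deletion cultures, 3.06-fold lower (adjusted p = 2.39e-05). BMS1, a GTPase of the processome, read 216 and 264 against 94.8 and 86.3 (2.64-fold, adjusted p = 2.71e-06). Neither gene's groups came close to overlapping. NOP1, the fibrillarin that methylates ribosomal RNA, and NSR1, the yeast nucleolin, were 2.49- and 1.98-fold lower, but neither was called with all 12 groups (adjusted p = 0.0635 and 0.104). For NOP1 the difference was already present at steady state, at −1.15. EMG1, a methyltransferase of ribosomal RNA, was not called without deletion replicate 1 (adjusted p = 0.230) or without reference replicate 1 (0.0541). RSA4, a 60S assembly factor, read 131 and 162 against 18.5 and 44.4 (5.08-fold lower, adjusted p = 0.000192). FPR4, a nuclear prolyl isomerase, was 2.67-fold lower and RLP24, a placeholder on the 60S precursor, 2.49-fold. RRB1, which escorts newly made Rpl3, was 2.60-fold lower, with an adjusted p of 0.0601 with all 12 groups.

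The number of assembly genes called depended on the fit. With all 12 groups 8 and 9 genes of these lists were lower, where 4.51% of all genes were. Without deletion replicate 1 the numbers were 39 and 45, with quantile normalization 51 and 56, and under a common median 59 and 62. Both strains had raised the lists strongly, by medians of 1.54 and 1.52 in the reference strain and of 1.12 and 1.18 without SFP1, and 13 and 11 genes had a called negative interaction. OLA1, a P-loop ATPase outside these lists, was among the 15 largest differences. It read 1443 and 1486 against 320 and 262, 5.06-fold lower (adjusted p = 1.12e-08), while the difference at steady state was −0.70 and at 120 min −2.30. SNR67, a small nucleolar RNA, read 294 and 322 against 30.7 and 110, and was not called without deletion replicate 1 (adjusted p = 0.0829).

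Transcripts of the polymerases that make ribosomal and transfer RNA were called in both directions, but mostly lower when the arrays were rescaled. Of 41 genes of RNA polymerase I and III, 15 were lower and 10 higher, against 10.7% and 42.6% of all genes, with a median of −0.25. Under a common median 23 were lower and 1 higher, with a median of −0.75. With quantile normalization 18 were lower and 1 higher. Without deletion replicate 1, 17 were lower and 4 higher. The lower ones included subunits of the core enzymes. RPA14, of polymerase I, read 270 and 331 against 75.7 and 90.9 (3.61-fold lower), and RPB5, which all 3 nuclear polymerases share, 528 and 538 against 192 and 169 (2.96-fold lower). RPA135 and RPA190, the 2 largest subunits of polymerase I, were 2.40- and 2.30-fold lower. The brightest probe set of RPA190 gave a difference of −1.20. Its next 2 gave −2.40 and −3.55, so its probe sets disagreed in size but not in direction. Where these probe sets lie along the gene was not looked up. RRN3, the factor that recruits polymerase I, was 2.60-fold lower (adjusted p = 8.01e-05).

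Of the 23 regulators of ribosome genes on the list, 8 were higher and 3 lower, which is near the shares of all genes (42.6% and 10.7%). Without deletion replicate 1, 3 were higher and 4 lower, and under a common median 2 and 8. The 3 lower ones were SFP1, RRN3 and MRS6. MRS6, an escort protein for Rab GTPases that also binds Sfp1, was chosen for mention after its value was seen (−0.51, adjusted p = 0.0097). FHL1 and IFH1, which together drive ribosomal protein genes, differed by −0.14 and −0.28 and were not called (adjusted p = 0.595 and 0.257). Under a common median they were lower, at −0.64 and −0.77 (adjusted p = 0.0300 and 0.00481), and IFH1 was also lower without deletion replicate 1 (adjusted p = 0.0187). ABF1, a general regulatory factor, was 2.35-fold higher, and LST8, a subunit of both TOR complexes, 2.09-fold higher.

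**Figure D2:**
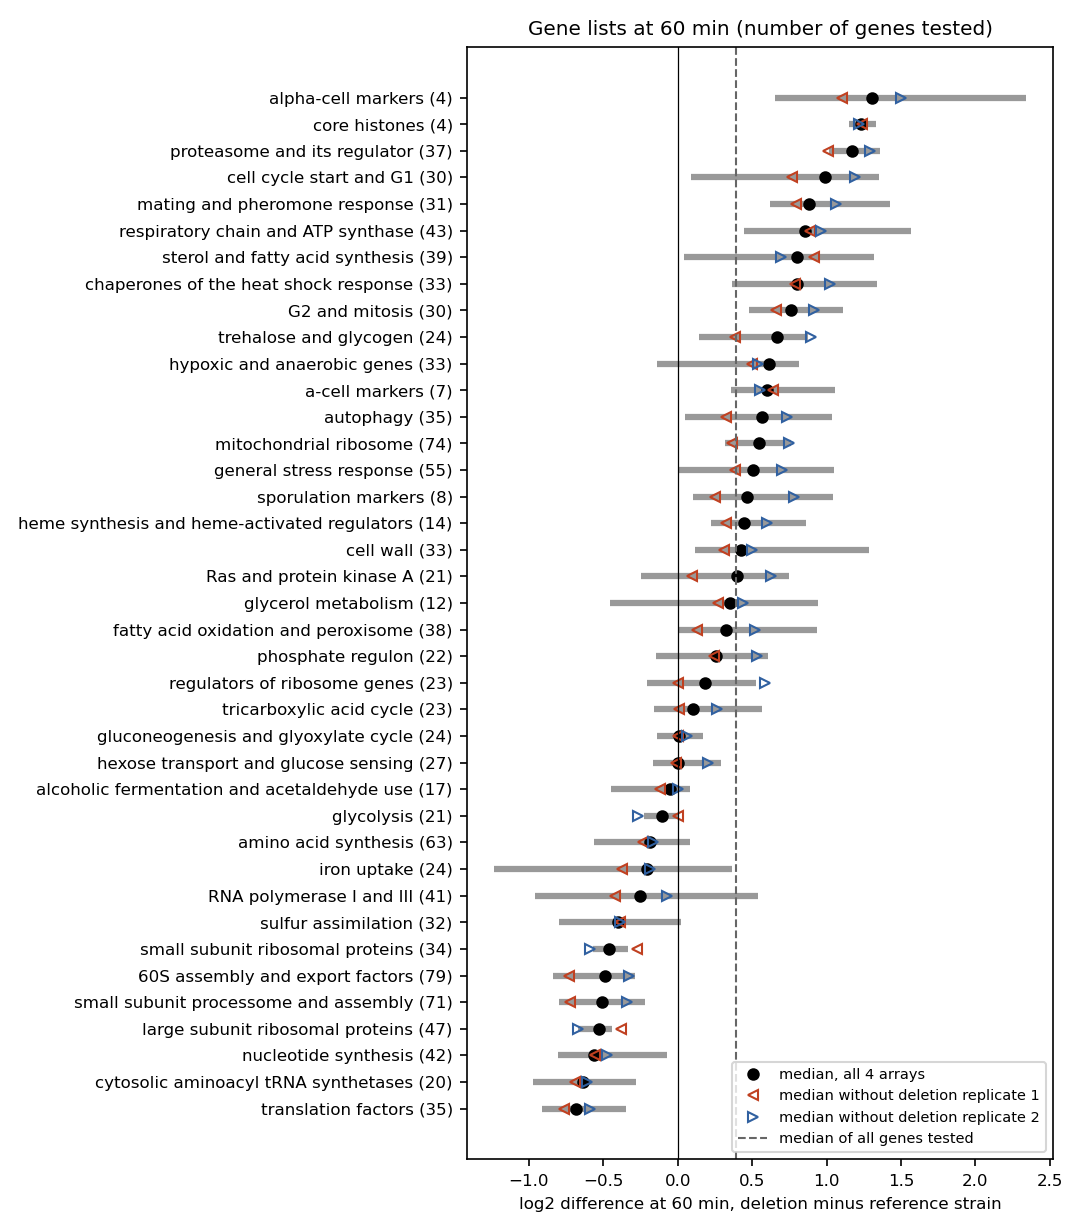
Median log2 difference at 60 min of each gene list (black points), with the interquartile range of its genes (grey bars), against the median of all genes (dashed line at 0.39). Open triangles give the median with either deletion array left out. Ribosome production, translation, nucleotide and sulfur lists lie below 0, and the alpha cell marker, histone, proteasome, G1, mating and respiratory lists lie furthest above the dashed line.

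The translation machinery outside the ribosome was lower as well. Of 35 translation factors 25 were lower and none higher, with the lowest median of all 39 lists, −0.68, and of 20 cytosolic aminoacyl tRNA synthetases 14 were lower and none higher, with a median of −0.63. TEF4, a subunit of the elongation factor eEF1B, read 1599 and 1284 against 570 and 466 (2.78-fold lower, adjusted p = 9.74e-07). RPG1, a subunit of the initiation factor eIF3, was 2.67-fold lower. GLN4, the glutaminyl-tRNA synthetase, read 135 and 127 against 50.6 and 39.3 (2.94-fold lower, adjusted p = 6.40e-07). SES1, MES1 and WRS1, the enzymes for serine, methionine and tryptophan, were 2.17-, 2.03- and 2.00-fold lower. DED1, an RNA helicase of initiation, was 2.57-fold lower, and its call was lost with all 12 groups (adjusted p = 0.196) and without deletion replicate 1 (0.0726). With all 12 groups 16 translation factors and 7 synthetases were lower, and under a common median 34 and 18. The translation factor list also holds ANB1, which is described with the hypoxic genes.

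Biosynthetic pathways that feed growth shared this direction to different degrees. In nucleotide synthesis 23 of 42 genes were lower and 3 higher, with a median of −0.56. FUR1, which salvages uracil, read 662 and 677 in the reference and 146 and 98.2 in the deletion cultures, 5.60-fold lower (adjusted p = 3.35e-08). IMD4, an IMP dehydrogenase of guanine nucleotide synthesis, read 339 and 376 against 62.5 and 81.5 (5.00-fold lower, adjusted p = 6.55e-07). The strain difference of FUR1 was −1.47 at steady state, whereas that of IMD4 was −0.03. RNR1, the large subunit of ribonucleotide reductase, and YNK1, the nucleoside diphosphate kinase, went the other way, 2.62- and 2.75-fold higher. In sulfur assimilation 16 of 32 genes were lower and 4 higher, and in amino acid synthesis 21 of 63 were lower and 6 higher. SUL1, a sulfate permease, read 229 and 291 against 51.0 and 39.2 (5.77-fold lower, adjusted p = 2.03e-09). SAM3, a permease for S-adenosylmethionine, was 5.99-fold lower, but 2 of its 4 other probe sets gave −0.30 and 0.03. CYS4 and MET13, enzymes of cysteine and methionine synthesis, were 2.35- and 2.56-fold lower. LEU9, a leucine pathway enzyme, was 4.30-fold lower, and ARO4, the entry into aromatic amino acids, 2.82-fold lower. LYS9, of lysine synthesis, was 2.61-fold lower, with no called difference at steady state (0.31, adjusted p = 0.0839). TRP1 was 2.85-fold higher. With all 12 groups the lower counts for these lists were 11, 6 and 11, and without deletion replicate 1 they were 22, 12 and 19. Under a common median they were 33, 25 and 44.

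The clearest upward shift was in protein breakdown. All 37 genes on the list of the proteasome, its regulator and polyubiquitin were higher in the deletion strain, with both deletion arrays above both reference arrays for every gene, and a median of 1.17. SEM1, a small subunit of the regulatory particle, read 92.6 and 96.9 against 312 and 272 (3.07-fold higher, adjusted p = 6.91e-06). PRE7, of the core particle, read 152 and 187 against 563 and 433 (2.93-fold, adjusted p = 3.71e-07). RPT2, an ATPase of the base, was 2.89-fold higher, and RPN4, the transcription factor that drives these genes, 2.10-fold. UBI4, the polyubiquitin gene induced by stress, showed the largest difference of the list, with 89.9 and 83.0 against 548 and 551 (6.37-fold higher, adjusted p = 1.75e-08). Of the list, 36 were higher with all 12 groups, 36 without deletion replicate 1, 37 with quantile normalization and 32 under a common median, where its median was 0.68. The reference strain changed these genes since steady state by a median of −1.01 on the log2 scale and the deletion strain by −0.18, and 30 genes had a called positive interaction, against 18.1% of all genes. At steady state 19 were already higher, with a median of 0.38, where 18.4% of all genes were higher and 8.14% lower.

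Chaperones were higher too, though less uniformly, while the general stress list had a share called higher close to that of all genes. Of 33 chaperones and heat shock genes 24 were higher and none lower, with a median of 0.80. HSP30, a small membrane protein that restrains the plasma membrane proton pump under stress, had the largest difference of all genes named here, just ahead of MF(ALPHA)1 and YRO2. It read 13.3 and 14.9 in the reference cultures and 291 and 216 in the deletion cultures, 17.8-fold higher (4.15 ± 0.29, adjusted p = 1.39e-08). HSP12 and HSP26, small heat shock proteins, were 5.28- and 3.82-fold higher. HSP104, a disaggregase, and SSE2, an exchange factor of Hsp70, were 4.43- and 4.84-fold higher. On the general stress list 27 of 55 genes were higher and 1 lower, where 42.6% and 10.7% of all genes were. Its median was 0.50, against 0.39 for all genes. GRE2, a methylglyoxal reductase, read 14.4 and the floor against 175 and 133, at least 11.6-fold higher. GRX2, a glutaredoxin, was at the floor in both reference cultures and read 74.8 and 65.2 in the deletion cultures, at least 5.82-fold higher. Under a common median 14 chaperones were higher and 2 lower, and 16 general stress genes were higher and 1 lower, with medians of 0.39 and 0.04. The fit with all 12 groups had 16 genes of either list higher, where 25.2% of all genes were. In autophagy 19 of 35 genes were higher and none lower, against 42.6% and 10.7% of all genes. With all 12 groups 11 were higher, and under a common median 11 were higher and 1 lower. ATG8, the ubiquitin-like protein of the autophagosome membrane, was 4.56-fold higher, and the vacuolar carboxypeptidase PRC1 3.50-fold. A floor of 48 ended the call of ATG8 (adjusted p = 0.211).

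Storage carbohydrate and signalling genes differed for smaller shares of their lists than the chaperones did. In trehalose and glycogen metabolism 12 of 24 genes were higher and none lower, against 42.6% and 10.7% of all genes, with a median of 0.67. With all 12 groups 4 were higher, where 25.2% of all genes were. Without deletion replicate 1 and under a common median 7 were higher. NTH1, the neutral trehalase, was 3.44-fold higher, and TPS3, a regulatory subunit of trehalose synthesis, 3.26-fold. In the Ras and protein kinase A list 9 of 21 genes were higher and 1 was lower, a share close to the 42.6% of all genes. YAK1, a kinase that opposes protein kinase A, was 3.09-fold higher, with a signal of 17.6 and 13.4 against 56.9 and 39.5. That probe set gave a log2 difference of 1.63, and the other probe sets of YAK1 gave 0.11 and 0.98. PDE1 and PDE2, the phosphodiesterases that remove cyclic AMP, were 2.04- and 2.49-fold higher, and GPB1, a negative regulator of the pathway, 2.34-fold. YAK1 was not called with a floor of 48 (adjusted p = 0.717). Under a common median this list had 5 genes higher and 5 lower, and without deletion replicate 1, 7 higher and 3 lower, with a median of 0.09.

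Most genes of the respiratory chain were called higher in the deletion strain, though not with all 12 groups. Of 43 genes of the respiratory chain and ATP synthase 31 were higher and 2 lower, against 42.6% and 10.7% of all genes. The list median was 0.85, or 0.42 under a common median. COX12, a subunit of cytochrome c oxidase, read 105 and 100.3 in the reference cultures and 685 and 640 in the deletion cultures, 6.45-fold higher (2.69 ± 0.14, adjusted p = 3.80e-10). COX6 and COX7, of the same enzyme, were 5.68- and 4.69-fold higher. COX5A was 4.89-fold and CYC1, iso-1-cytochrome c, 3.52-fold higher, but neither was called with all 12 groups (adjusted p = 0.114 and 0.0708). In that fit 10 of the 43 were higher and none lower, a share near the 25.2% of all genes called higher there. Both strains had reduced the list by 60 min, with a median change since steady state of −3.91 in the reference strain and −2.70 without SFP1. At steady state 3 were higher and 4 lower, and 27 genes had a called positive interaction. The mitochondrial ribosome had 33 of 74 genes higher, near the 42.6% of all genes, and none lower. The list median was 0.55, against 0.39 for all genes, and without deletion replicate 1 it was 0.37. The direction of the list depended on the scaling, since under a common median 1 was higher and 3 lower, with a median of 0.05. In the tricarboxylic acid cycle 8 of 23 genes were higher and 2 lower, against 42.6% and 10.7% of all genes. Under a common median 1 of these was higher and 9 lower. LAT1 and PDB1, subunits of pyruvate dehydrogenase, were 2.04- and 1.80-fold higher, and PDB1 was not called under a common median (adjusted p = 0.0803). CIT1, citrate synthase, was 1.86-fold lower and KGD1, of ketoglutarate dehydrogenase, 1.89-fold higher, and neither was called with all 12 groups (adjusted p = 0.463 and 0.370).

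Most sterol and fatty acid genes were higher at 60 min, which they had not been before the pulse. Of 39 genes 26 were higher and 3 lower, with a median of 0.80. At steady state 4 had been higher and 11 lower, with a median of −0.10, and 24 genes had a called positive interaction. ERG5, the sterol desaturase of carbon 22, read 30.6 and 32.0 in the reference cultures and 252 and 223 in the deletion cultures, 7.57-fold higher (2.92 ± 0.14, adjusted p = 1.71e-10). The reference strain had lowered ERG5 11.7-fold since steady state and the deletion strain 1.20-fold. ERG3, another sterol desaturase that needs oxygen, read 1156 and 897 against 3357 and 3756 (3.49-fold higher). ERG4, of the last step to ergosterol, was 3.74-fold higher. ELO3, a fatty acid elongase, went the other way, with 1198 and 1267 against 405 and 325 (3.40-fold lower, adjusted p = 5.10e-07). Under a common median 17 of the list were higher and 10 lower.

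The list of hypoxic and anaerobic genes held large differences in both directions. Of 33 tested, 16 were higher and 6 lower, against 42.6% and 10.7% of all genes, and under a common median 8 were higher and 10 lower. ANB1, the hypoxic form of the translation factor eIF5A, read 4675 and 3999 in the reference cultures and 868 and 842 in the deletion cultures, 5.06-fold lower (−2.34 ± 0.16, adjusted p = 1.10e-08). FET4, a low-affinity iron transporter induced without oxygen, read 439 and 458 against 45.4 and 38.4, 10.7-fold lower (adjusted p = 1.71e-10). AAC3, the anaerobic ADP/ATP carrier, was chosen for mention after its value was seen, at −1.43. ANB1, FET4 and AAC3 were at or near the floor in both strains at steady state. Against them, the cell wall mannoprotein gene TIR1 read 142 and 165 in the reference and 543 and 528 in the deletion cultures (3.50-fold higher), and DAN1 read 13.8 and the floor against 52.2 and 78.5 (at least 4.97-fold higher). Also chosen after their values were seen, the sterol importers AUS1 and PDR11 differed by 1.35 and 1.59, and both were called. DAN1, TIR1, AUS1 and PDR11 take part in wall remodelling and sterol import of anaerobic cells. ANB1, FET4 and AAC3 are textbook targets of the repressor Rox1, whose own transcript was not called (0.77, adjusted p = 0.0577). The list was not sorted by regulator, and the part of Rox1 in these differences was not tested. In the list of heme synthesis and heme-activated regulators 6 of 14 genes were higher and none lower, again near 42.6%, and under a common median 3 were higher and 2 lower. HAP3 and HAP5, subunits of the activator of respiratory genes, were 2.27- and 2.20-fold higher, and HAP5 was not called under a common median (adjusted p = 0.0560). HMX1, a heme oxygenase, was at the floor in the reference cultures and at least 2.43-fold higher. Every 60 min signal of HMX1 and HAP5 lies below 48, so neither was called with that floor.

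Iron uptake genes gave some of the largest downward differences. Of 24 genes 11 were lower and 7 higher, with a median of −0.20, and under a common median 14 were lower and 3 higher. FET3, the ferroxidase of high-affinity uptake, read 1530 and 735 in the reference cultures and 99.6 and 114 in the deletion cultures, 9.97-fold lower (−3.32 ± 0.40, adjusted p = 5.70e-06). The reference replicates differed by more than those of the deletion strain, yet no array of one strain reached the other. FIT2, a wall mannoprotein that holds siderophores, was 6.56-fold lower, and the siderophore transporters ENB1 and SIT1 were 5.06- and 4.08-fold lower. TIS11, which promotes decay of messengers for iron-using proteins, read 77.0 and 65.2 against the floor, at least 5.90-fold lower. FTR1, the permease that pairs with FET3, was chosen after its value was seen and differed by −1.41 (adjusted p = 0.00606 with all 12 groups). The higher genes of the list were led by CCC1, a vacuolar iron importer, at 1.55, and by HMX1. Of the list, 7 genes were lower and 3 higher with all 12 groups. The summed signal of the list was 5655 and 4205 in the reference cultures and 2264 and 1943 in the deletion cultures.

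On each list of central carbon metabolism the share of genes called higher was below that of all genes, where 42.6% were higher and 10.7% lower. In glycolysis 3 of 21 genes were higher and 1 was lower, with a median of −0.11. HXK2, the main glucose kinase, was the lower one, with 1804 and 1395 against 1011 and 926 (1.64-fold), and it had already been lower at steady state. Quantile normalization ended its call (adjusted p = 0.0736). Of the 3 higher ones, GPM3, PFK26 and PFK27, none was called with all 12 groups (adjusted p = 0.304, 0.243 and 0.0700) or without deletion replicate 1 (0.459, 0.0598 and 0.169). Of the glycolysis genes 1 was higher and 14 were lower under a common median, where 919 of all 5369 genes were higher and 1248 lower. In hexose transport and sensing 5 of 27 were higher and 3 lower, and under a common median 1 and 13. HXT1, the low-affinity transporter induced by high glucose, read 1468 and 1617 against 828 and 689 (2.04-fold lower), and HXT4 was 2.01-fold lower and HXT2 2.08-fold higher, none of them called with all 12 groups (adjusted p = 0.259, 0.141 and 0.306). In alcoholic fermentation and acetaldehyde use 4 of 17 genes were higher and 5 lower, and under a common median 2 and 9. PDC1 and ADH1, the main enzymes from pyruvate to ethanol, differed by −0.38 and −0.27 and were not called (adjusted p = 0.0921 and 0.184), but both were lower under a common median. PDC5, a second pyruvate decarboxylase, read 3637 and 3056 in the reference and 969 and 1162 in the deletion cultures (3.14-fold lower, adjusted p with all 12 groups 0.0945). ALD6, which oxidises acetaldehyde, was 5.11-fold higher and ADH2, the ethanol-consuming dehydrogenase, 2.24-fold lower, again without a call in that fit (adjusted p = 0.0924 and 0.149). The other probe set of ALD6 was at the floor in both strains. ADH6 was 2.69-fold higher with both fits. In gluconeogenesis and the glyoxylate cycle 3 of 24 genes were higher and 4 lower, and under a common median 1 and 8. FBP1 was at or near the floor on all 4 arrays, and CIT2 was 2.03-fold lower.

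Glycerol genes held one of the largest single differences. GPP2, which releases glycerol from its phosphate, read 33.7 and 32.3 in the reference cultures and 379 and 377 in the deletion cultures, 11.4-fold higher (3.52 ± 0.15, adjusted p = 1.28e-10). The 4 values fell into tight pairs. GPD2, the dehydrogenase that makes the glycerol phosphate without oxygen, read 257 and 490 against 161 and 83.7 (3.05-fold lower), and lost its call without reference replicate 2 (adjusted p = 0.0504). YPR1 and DAK1, of dihydroxyacetone use, were 3.34- and 2.35-fold higher. In fatty acid oxidation and the peroxisome 16 of 38 genes were higher and 2 lower, close to the 42.6% of all genes called higher. Under a common median 8 were higher and 4 lower, with a median of 0.01, and without deletion replicate 1, 10 were higher. PEX14 and PEX21, of peroxisomal protein import, were 2.84- and 2.95-fold higher. In the phosphate regulon 9 of 22 were higher and 4 lower, also near that share, and under a common median 3 were higher and 6 lower. VTC3, of polyphosphate synthesis, was 2.57-fold higher. PHO4, the activator of the regulon, read 137 and 193 against 15 and 53.8 (5.71-fold lower), and was not called without deletion replicate 1 (adjusted p = 0.105).

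Cell cycle genes were higher in the deletion strain. In the list of Start and G1 19 of 30 genes were higher and 1 was lower, with a median of 0.99, and under a common median 14 were higher and 5 lower. PCL1, a G1 cyclin, read 19.2 and 22 against 130 and 89.1 (5.24-fold higher, adjusted p = 7.94e-09). MSH6, POL30 and SIC1, for mismatch repair, replication and the inhibitor of S phase cyclins, were 3.50-, 3.49- and 3.32-fold higher. CLN3, the cyclin that starts the cycle, read 101 and 142 against 95.2 and 54.6 and was not called (−0.73 ± 0.31, adjusted p = 0.0561). It passed under a common median at −1.23 and without deletion replicate 1 at −1.13. In G2 and mitosis 20 of 30 genes were higher and 2 lower, and under a common median 10 and 2. ASH1, the daughter cell repressor, read 48.5 and 53.8 against 284 and 330 (5.99-fold higher). DSE4 and DSE1, daughter cell wall genes, were 5.17- and 4.24-fold higher, and SCW11 3.87-fold. All 4 of the 10 listed histone genes that could be tested were higher, among them HTB1 and HTB2 of histone H2B at 2.25- and 2.45-fold. In bulk RNA a difference in the share of cells in a phase and a difference in RNA per cell cannot be told apart.

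Most mating genes were higher as well. Of 31 mating and pheromone genes 24 were higher and none lower, with a median of 0.88, and under a common median 14 were higher and 4 lower. PRM1, for fusion of mating cells, read 20.7 and 34.4 against 185 and 185 (6.93-fold higher), and FIG1, at the floor in both reference cultures, was at least 3.50-fold higher, but not called with a floor of 48 (adjusted p = 0.0641). Both strains are labelled MATa. Of 7 markers of a cells 5 were higher, and 2 under a common median, and their summed signal, which overlapped between the strains, was 9699 and 10945 in the reference and 10107 and 12259 in the deletion cultures. AGA2, an a-agglutinin subunit, was 2.40-fold and ASG7 at least 3.55-fold higher, with every signal of ASG7 below 48. Of 5 markers of alpha cells 4 could be tested and 3 were higher, with a summed signal of 80.0 and 96.5 against 647 and 449. MF(ALPHA)1, the alpha factor precursor, read 21.6 and 22.9 in the reference cultures and 485 and 318 in the deletion cultures, 17.7-fold higher (4.14 ± 0.27, adjusted p = 7.94e-09). STE3, the a factor receptor of alpha cells, was 3.34-fold higher. SAG1 was 1.82-fold higher and lost its call with all 12 groups (adjusted p = 0.0535) and without deletion replicate 1 (0.296), and AFB1 was at the floor on all 4 arrays. The MF(ALPHA)1 difference was 3.45 at steady state and 2.64 at 120 min. Of 16 sporulation markers 8 could be tested and 5 were higher, all at a low signal, with a sum of 130 and 124 against 210 and 194. The part of other cell types in these results was not tested. On the cell wall list 16 of 33 genes were higher and none lower, with a median of 0.43, close to the 0.39 of all genes, and under a common median 13 were higher and 5 lower. CWP1, a wall mannoprotein, read 31.4 and 30.5 against 234 and 177 (6.58-fold higher), and the integrity sensor WSC4, not on that list, was 6.62-fold higher. PST1, SCW10 and PIR1, all of the wall, were 5.70-, 3.47- and 3.37-fold higher.

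Several of the largest upward differences belong to genes on none of the lists. YRO2, a membrane protein related to HSP30, read 22.9 and 29.2 in the reference cultures and 443 and 462 in the deletion cultures, 17.5-fold higher (4.13 ± 0.20, adjusted p = 1.71e-10). The uncharacterised genes YOR338W and YNL134C were at least 15.6-fold and 13.4-fold higher. PLN1, a lipid droplet protein, read 22 and 22.7 against 221 and 169 (8.64-fold higher). YHB1, a flavohemoglobin that detoxifies nitric oxide, was 6.06-fold higher and NCA3 6.55-fold.

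The difference at 60 min was set beside those at steady state and 120 min, which come from other arrays. Of the 2287 genes higher at 60 min, 690 were also higher at steady state, where 986 genes (18.4%) were called higher. This is 30.2% of the former and 70.0% of the latter. At steady state 437 (8.14%) were lower. At 120 min 2146 genes (40.0%) were higher and 422 (7.86%) lower. Of the genes higher at 60 min 1651 were higher at 120 min, which is 72.2% of the former and 76.9% of the latter, and of the lower ones 330, 57.6% and 78.2%. The strain differences of the 5369 genes correlated at 0.544 between 60 min and steady state and at 0.754 between 60 and 120 min, as a description over genes of shared signal level. Between 60 min and steady state the difference itself changed for 973 genes in the positive and 283 in the negative direction, 18.1% and 5.27%. With all 12 groups these counts were 165 (3.07%) and 41 (0.764%), and without deletion replicate 1 they were 549 and 318. Between 60 and 120 min it changed for 82 genes in the positive and 125 in the negative direction, 1.53% and 2.33%, and with all 12 groups for 4 (0.0745%) and 7 (0.130%). In a fit of the compared groups alone, 61 of 197 results for named genes no longer passed.

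**Figure D3:**
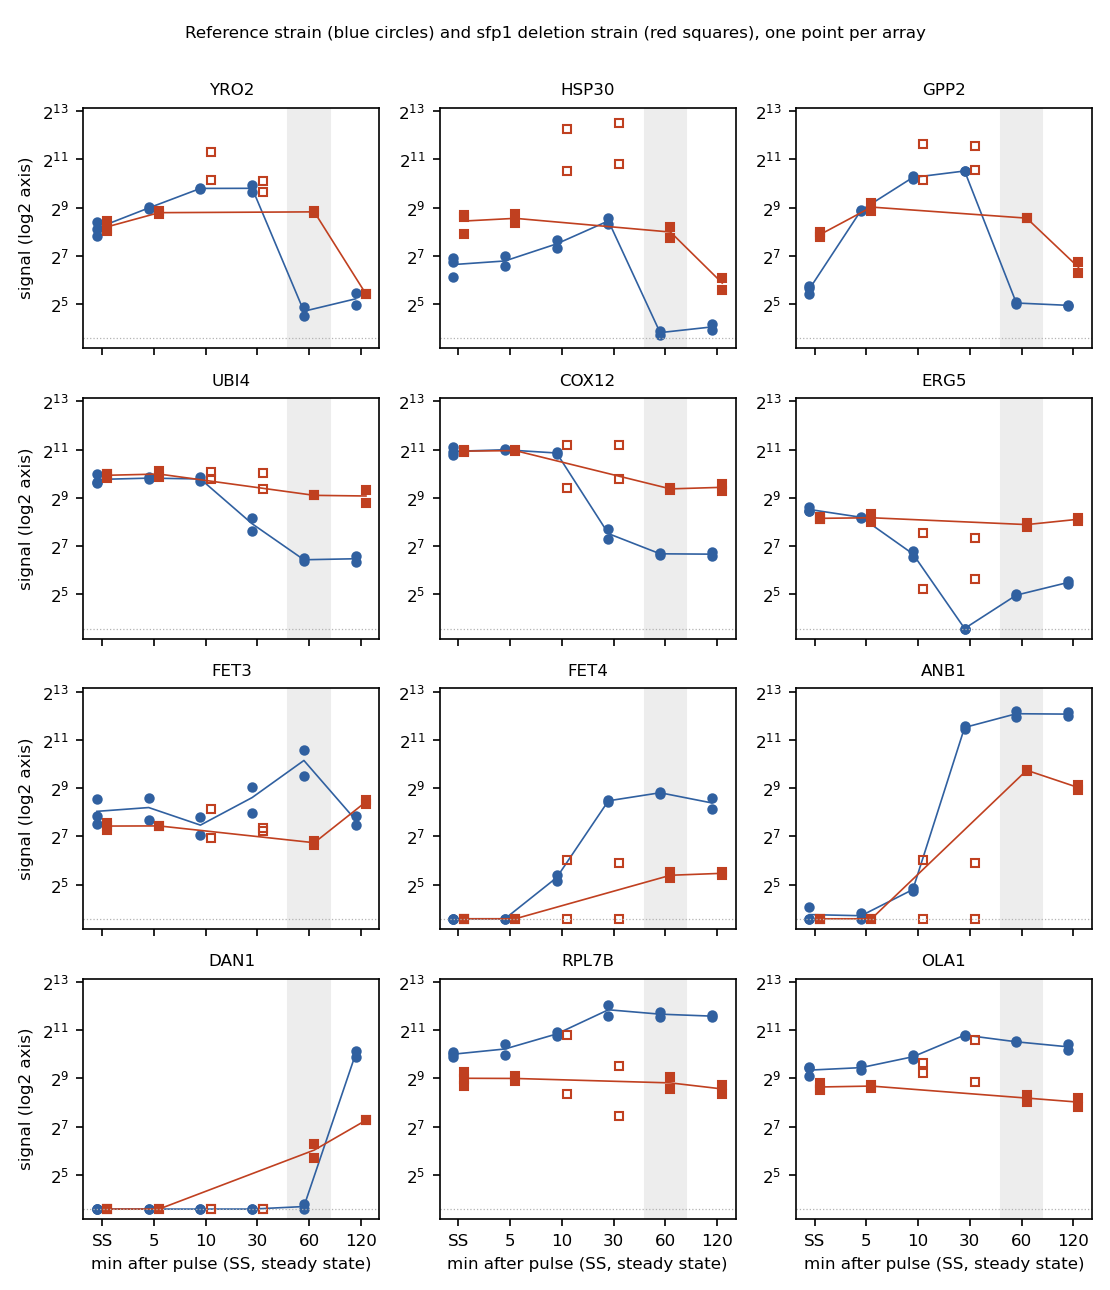
Signal of 12 genes on a log2 axis against time after the pulse (SS, steady state), with 1 point per array, blue for the reference and red for the deletion strain; lines join group means, open squares are deletion arrays labelled 10 and 30 min, and the dotted line is the floor of 12. YRO2 is close in both strains at steady state and 120 min and apart at 60 min, COX12, UBI4 and ERG5 stay apart from 60 to 120 min, and DAN1 changes order between 60 and 120 min.

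For some genes the strain difference itself changed from 60 to 120 min. YRO2 read 278, 229 and 343 in the reference and 275, 349 and 260 in the deletion cultures at steady state, and 43.5 and 30.9 against 42.3 and 43.0 at 120 min. Its difference at 60 min exceeded that at 120 min by 3.91 ± 0.28 (adjusted p = 1.92e-07, and 9.42e-05 with all 12 groups). DAN1 reversed. At 120 min it read 1118 and 952 in the reference and 153 and 155 in the deletion cultures, 6.70-fold lower in the deletion strain, where it had been higher at 60 min (change 5.06 ± 0.22, adjusted p = 2.08e-10, and 7.05e-11 with all 12 groups). FET3 read 232 and 178 against 328 and 364 at 120 min, a difference of 0.77 that was not called (adjusted p = 0.123). Its change between the times was −4.08 ± 0.57 (adjusted p = 0.000266, and 0.00400 with all 12 groups). SIT1 went from −2.03 at 60 min to 1.11 at 120 min and DIP5, a permease for acidic amino acids, from −2.03 to 0.02. Both changes were called with either fit. TIR1 reached 3160 and 2748 in the reference and 3141 and 3362 in the deletion cultures at 120 min and no longer differed by the test (0.14, adjusted p = 0.630). HSP26 went the opposite way, from 1.93 at 60 min to 3.65 at 120 min (change −1.72 ± 0.21, adjusted p = 0.000132). For iron uptake the list as a whole had 12 of 24 genes higher and 1 lower at 120 min, with a median of 0.59. Of all genes 40.0% were higher and 7.86% lower at that time, with a median of 0.39.

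Other differences were of similar size at both times. RPL7B differed by −2.87 and −3.03, COX12 by 2.69 and 2.76, UBI4 by 2.67 and 2.58, and OLA1 by −2.34 and −2.30. At 120 min 45 large and 32 small subunit ribosomal protein genes were lower, with medians of −0.70 and −0.65. The respiratory list had 41 of 43 genes higher at 120 min with a median of 1.27, and the general stress list 44 of 55 with a median of 1.22.

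**Figure D4:**
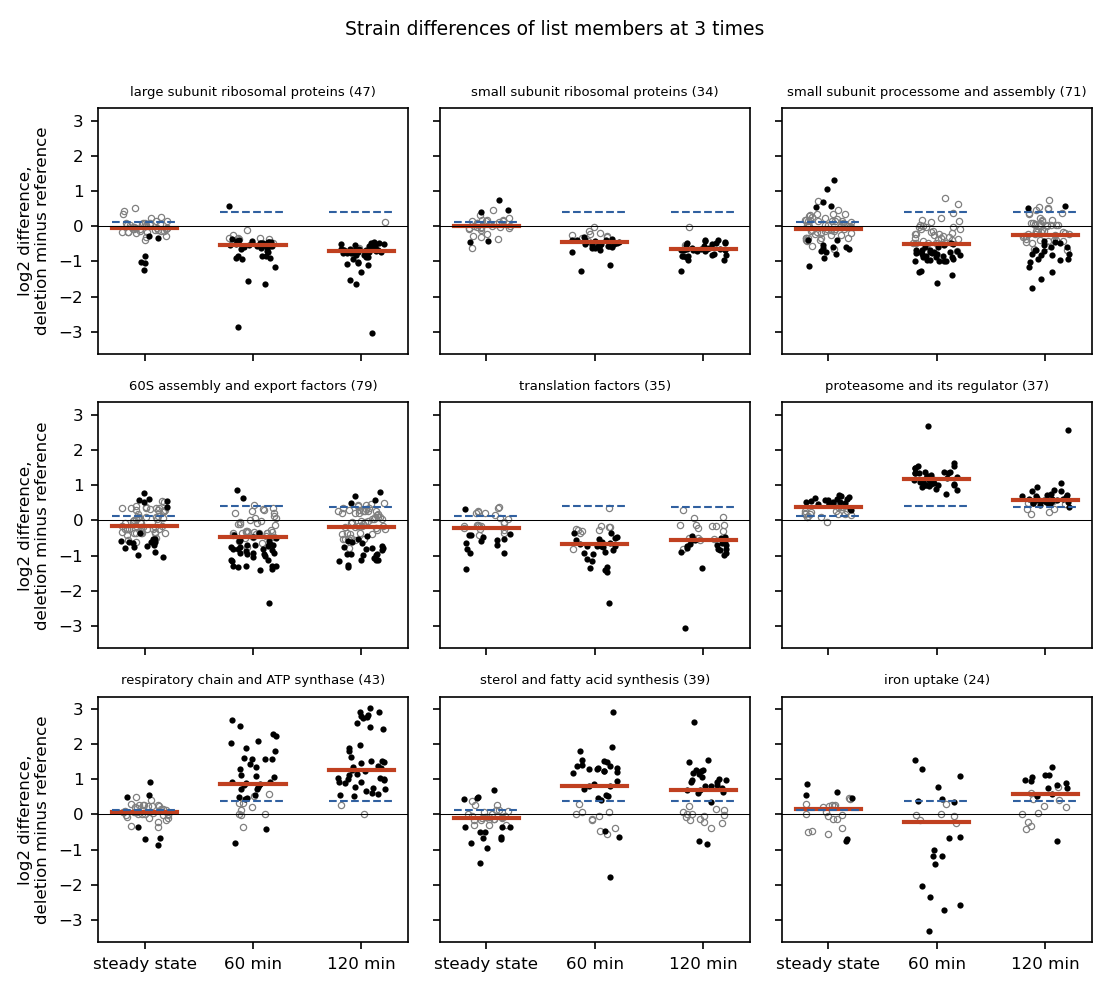
Log2 strain difference of every tested gene of 9 lists at steady state, 60 and 120 min (filled points, called; open points, not called), with the list median in red and the median of all genes as a blue dashed line. Ribosomal protein medians lie near 0 at steady state and below it at both later times, proteasome genes lie above the dashed line at 60 min without exception, and iron uptake genes are spread more widely at 60 min than at the other times.

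The actin 5′ to 3′ ratio was lower in both deletion cultures at 60 min, and other measures of RNA quality stand here beside the results. For SPT15, the TATA-binding protein gene, the 5′ to 3′ ratio was 0.441 and 0.494 in the reference and 0.555 and 0.344 in the deletion cultures, so the strains overlapped. For SRB4 it was 0.280 and 0.310 against 0.118 and 0.156, although the 5′ signals were below the floor. With the actin ratio as a covariate 1932 genes were higher and 578 lower. Leaving out the 2 arrays of the fit with an actin ratio under 0.3, an alternative added after the data were seen, gave 1561 and 610. The median difference was 0.50 in the quartile of shortest genes, 0.40 in the next, 0.30 in the third and 0.40 in the quartile of longest genes. Its range over these quartiles was larger without deletion replicate 1, from 0.12 to 0.42, than without deletion replicate 2, from 0.49 to 0.59. By signal, the median was 0.25 in the brightest quartile and 0.54 in the next to dimmest. ACT1 itself differed by −0.01 ± 0.12, and was lower under a common median (−0.50, adjusted p = 0.0171). Beyond these values, the part of RNA quality in the results was not tested.

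**Figure D5:**
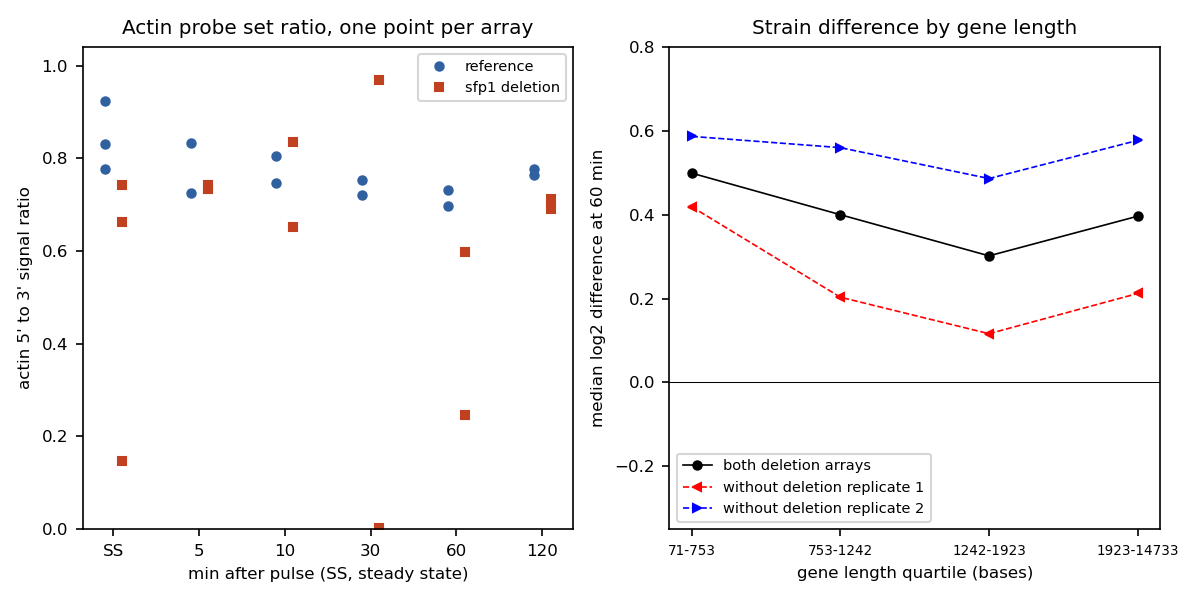
Left, actin 5′ to 3′ ratio of every array against time, with blue circles for the reference and red squares for the deletion strain; right, median log2 strain difference at 60 min in quartiles of gene length, with both deletion arrays or 1 left out. The deletion arrays at 60 min lie at 0.247 and 0.598, below both reference arrays, and the median stays above 0 in every length quartile.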

How the data were processed

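The authors deposited linear signal intensity per probe set. The submitters' processing notes name GCOS, with no version, and the sources used here do not give the signal algorithm. The 2% trimmed mean of the intensity values lay between 150.1 and 150.2 on every array, so the deposited values had been scaled. They were used without further scaling.

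Of 9335 probe sets 60 are controls. In the platform annotation 6504 have 1 gene, 328 have several and 2443 have none. All 5656 genes were found in RefSeq, whose current symbols are used. The brightest probe set was used for the 315 genes with several. Signals under 12 were set to 12 before log2, and 287 genes above 12 on fewer than 2 arrays were left out, which left 5369.

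Group means of 10 groups (22 arrays) were fitted with limma 3.58.1 (R 4.3.3), using lmFit and eBayes with trend, and gave 12 residual and 4.66 prior degrees of freedom. The deletion arrays labelled 10 and 30 min were left out because replicates of a label differed widely. With reference replicate 1 at 60 min, those labelled 10 min correlated at 0.694 and 0.866, and those labelled 30 min at 0.856 and 0.704. All 12 groups together are an alternative. Tests are two-sided, with a threshold of 0.05 on the Benjamini-Hochberg adjusted p. The number of arrays limits the precision.

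The comparison, the 39 gene lists, the tests and the rule for naming genes were chosen with earlier results of these data known. Named genes (181) are SFP1, LEU2, ACT1 and fixed markers. To these were added the 15 most positive and 15 most negative genes called with both fits and without overlap between strains, the 8 most positive and 8 most negative interactions by the same rule, and up to 4 called members of each list with the largest difference. Single members of repeated families were not named by this rule. Plots used Python 3.11.15 and matplotlib 3.10.9. No sequence is shown, and a search of promoters for motifs was not run because no sequence was used here. Alternatives changed the scaling, the floor, the filter, the probe sets, the variance estimate, the threshold, the replicate block, an actin covariate and the arrays included.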

Additional observations from a re-analysis of the deposited data

Results flagged for a closer look

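The strain difference at 60 min was tested against the difference at steady state, and it was more positive for 973 genes and more negative for 283. The corresponding test against 120 min gave 82 and 125 genes. Tests of single genes put the following at the ends of the first comparison. YRO2, a membrane protein related to HSP30, had an interaction of 4.06 on the log2 scale. PLN1 of lipid droplets followed at 3.46, the sterol desaturase ERG5 at 3.29 and the flavohemoglobin YHB1 at 3.16. YOR338W had 3.02, NCA3 2.96, YNL134C 2.95 and YLR460C 2.73. In the negative direction the iron transporter FET4 had −3.42, TIS11 −3.02 and MRX18 −3.02. FIT2 had −2.78, FET3 −2.77, the amino acid permease DIP5 −2.60, ENB1 −2.60 and SIT1 −2.46. Of these 8 genes in the negative direction FET3, FIT2, TIS11, ENB1 and SIT1 are on the iron uptake list. Some arrays entering these tests were at the floor of 12 for FET4, TIS11, MRX18 and YOR338W, so their interactions depend on it.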

How the results depend on the processing

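At 60 min the counts of higher and lower genes moved by over 1.5 times under several alternatives. Quantile normalization gave 1186 higher, and a common median 919 higher and 1248 lower. A floor of 48 gave 1500 higher. All 12 groups gave 1354 and 242, the 4 arrays alone 544 and 141, and a 2-fold minimum 873 and 197. Leaving out 1 array gave 1501 to 2646 higher and 441 to 575 lower, with 1501 without deletion replicate 1. At steady state a common median gave 646 higher, all 12 groups 199 and 109, the actin covariate 390 higher, its own arrays alone 467 and 196, an adjusted p under 0.01 425 and 228, and a 2-fold minimum 89 and 91. Leaving out 1 array gave 492 to 1031 and 284 to 509, with the lowest values without deletion replicate 1 and 641 higher without deletion replicate 2. At 120 min quantile normalization gave 876 and 648, a common median 545 and 1155, a floor of 48 1419 higher, all 12 groups 948 and 154, and a 2-fold minimum 652 and 103. Leaving out 1 array gave 1384 to 1867 and 325 to 336, with 1384 without deletion replicate 1 of that time.

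For the interaction, quantile normalization gave 417 more positive, a common median 365 and 795 more negative, and all 12 groups 165 and 41. Its own arrays alone gave 521 and 133, an adjusted p under 0.01 465 and 132, and a 2-fold minimum 443 and 96. Leaving out the 2 arrays with an actin ratio under 0.3, chosen after seeing the data, gave 588 more positive, and leaving out 1 array 549 to 1518 and 177 to 318. These were 549 more positive without deletion replicate 1 at 60 min, 1518 without deletion replicate 2, and 574 and 177 without reference replicate 1. For 60 against 120 min all 12 groups gave 4 and 7, its own arrays alone 27 and 79, an adjusted p under 0.01 35 and 62, and a 2-fold minimum 52 more positive. Without the 2 low-ratio arrays 212 were more negative, and leaving out 1 array gave 45 to 220 and 72 to 184. The 220 came without deletion replicate 2 at 60 min. Lower counts came without reference replicate 1 at 60 min (53 and 83), without reference replicate 2 (76 more negative), without either reference array at 120 min (48 and 72, 45 and 80) and without deletion replicate 1 at 120 min (76 more negative).

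Of 197 results for single named genes, interactions included, none changed direction past the threshold. With all 12 groups 28 calls were lost, with the 4 arrays alone 61, with a floor of 48 21, with a common median 13 and without deletion replicate 1 14. Of the 39 list medians 8 changed sign under a common median and 5 each under quantile normalization and a floor of 48. The cause of these changes was not tested. With the replicate number as a block 2280 genes were higher and 579 lower at 60 min, and no named call changed. The deviations of the replicates numbered 1 of both strains correlated between −0.167 and 0.143 over the 6 times. Each time gives a single correlation, so these values cannot decide whether the numbers pair the cultures. Crossing the numbers at 60 min, where the correlation was −0.161, gave 2304 and 585. Signals near the floor limit what can be seen for weakly expressed genes.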
